A study of Mus musculus with 33 samples.

Results

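The 10 genes described here encode transcription factors of the neural plate border and of the early neural crest, namely Pax3, Zic1, Msx1, Msx2, Tcfap2a, Tcfap2b, Snai2, Foxd3, Sox9 and Sox10. They were chosen by name as known border and crest specifiers, with earlier results of these data known, and all 10 were found among the 37991 genes counted in each library. The paper had already named Pax3 and Tcfap2b among the genes lower in its mutants. Shares of specifiers called, set below against those of all genes, are therefore a description and no independent test. Tcfap2a and Tcfap2b are the older names of Tfap2a and Tfap2b. The study asked how loss of Neil1 or Neil2, DNA glycosylases that start base excision repair, or of Apex1, the endonuclease that cuts abasic sites, affects mouse embryonic stem cells (mESCs) and their differentiation.

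RNA-seq was carried out on 33 libraries from clones of the mouse E14TG2a mESC line at 3 stages. The stages were undifferentiated mESCs grown with LIF, embryoid bodies (EBs, cell aggregates that differentiate after LIF is withdrawn) at day 8, and EBs+RA, which are day 8 EBs that received 5 µM retinoic acid (RA) from day 4. Control libraries came from 3 wild-type clones made by transfection with the empty CRISPR/Cas9 vector, and the Neil1 and Neil2 mutants were 3 clones each, with a deletion around the active site in the second exon. All libraries labelled Apex1 came from 1 clone, designed to carry a deletion in the fifth exon, with 2 technical duplicates per stage, so their spread holds no difference between clones.

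Cells at the border between the neural plate and the surface ectoderm receive BMP, WNT and FGF signals and switch on border factors of the Msx, Zic, Pax3/7 and AP-2 families. Some of these cells then switch on neural crest specifiers such as Snai2, Foxd3, Sox9 and Sox10, leave the epithelium and give rise to peripheral neurons, glia, pigment cells and the facial skeleton. Several of the genes are also used elsewhere, Foxd3 in pluripotent cells, Msx1 and Msx2 in mesoderm and Sox9 in cartilage and neural progenitors.

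Libraries held between 21523742 and 48350904 counts on genes, with a median of 26720028, so that 3 counts correspond to between 0.062 and 0.139 CPM of the unscaled totals. All levels below are CPM after TMM scaling of the library totals. Pluripotency markers added up to between 4622 and 5069 CPM in control mESCs, between 1617 and 1750 CPM in control EBs and between 74.3 and 114 CPM in control EBs+RA. The Neil1 gene itself was lower in Neil1 mutant EBs+RA (log2 fold change -1.18, adjusted p = 0.018) but was 31.6, 2.51 and 7.28 CPM in Neil1 mutant mESCs against 9.83, 9.53 and 7.67 CPM in control mESCs. The Neil2 gene was not called in Neil2 mutant libraries at any stage, with log2 fold changes of -0.69 in mESCs, 0.43 in EBs and 0.45 in EBs+RA, where the mutants, at 5.78, 5.23 and 4.87 CPM, were all above the controls at 3.32, 3.86 and 4.48 CPM. The whole-gene count thus does not check the Neil2 deletion, and directions drawn from the Neil2 libraries rest on their label. The paper reports genotyping PCR and RT-qPCR of Neil2 for the Neil2 mutant lines. Apex1 counts in the libraries labelled Apex1 were higher than in the controls, at 75.4 and 72.0 CPM against 8.18, 7.69 and 17.9 CPM in mESCs (log2 fold change 2.71, adjusted p = 0.0189), with log2 fold changes of 2.33 in EBs and 2.18 in EBs+RA. That direction is opposite to the label, and the planned deletion removes only a stretch of 1 exon, while 61.7% of the exon bases of Apex1 are shared with Tmem55b on the other strand, so the whole-gene count does not check the deletion. For the Apex1 mutant line the paper reports genotyping PCR and a western blot for APEX1. Its libraries are called "labelled Apex1" throughout, and every direction drawn from them rests on that label. In the third Neil1 mutant mESC library, 345 of 511 X-linked genes seen in the other mESC libraries had no count. All 10 specifiers lie on autosomes.

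RefSeq promoters are shown for specifiers that moved together with RA in the controls, Tcfap2b and Zic1, for Msx1, which was lower in the mutants, and for Foxd3, which fell with RA. The table of RefSeq promoters used here (build GRCm38.p6) held 6 of the 10 genes, Tfap2a, Tfap2b, Foxd3, Zic1, Msx1 and Msx2, and each window was placed by an exact match in NCBIM37, the build of the counts. The stretches run 5′ to 3′ on the strand of the gene up to the base before the RefSeq start, except that the last 42 bases of the Zic1 window overlap an annotated exon and are left out. The windows of Tcfap2a and Msx2 also overlap annotated exons and are not shown. Capitals mark the motifs searched on both strands, AP-2 (GCCNNNGGC), homeobox (TAATTG), the retinoic acid receptor half-site (AGGTCA), E-box (CACCTG), GC box (GGGCGG) and CCAAT box (CCAAT). The Tcfap2b stretch, chr1:19201885-19202134 on the plus strand, lies inside the annotated gene, and those of Zic1 (chr9:91260649-91260856, minus strand), Msx1 (chr5:38215825-38216074, minus strand) and Foxd3 (chr4:99322740-99322989, plus strand) lie just before it.
Tcfap2b: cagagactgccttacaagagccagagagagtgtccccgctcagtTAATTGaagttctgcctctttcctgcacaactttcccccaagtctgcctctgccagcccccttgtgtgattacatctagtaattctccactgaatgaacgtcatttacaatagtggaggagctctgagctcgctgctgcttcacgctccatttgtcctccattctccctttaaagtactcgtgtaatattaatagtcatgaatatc
Zic1: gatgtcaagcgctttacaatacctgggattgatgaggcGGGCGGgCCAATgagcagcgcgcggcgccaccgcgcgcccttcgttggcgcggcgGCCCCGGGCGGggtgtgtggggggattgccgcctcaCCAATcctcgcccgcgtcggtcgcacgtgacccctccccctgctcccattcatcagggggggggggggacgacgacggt
Msx1: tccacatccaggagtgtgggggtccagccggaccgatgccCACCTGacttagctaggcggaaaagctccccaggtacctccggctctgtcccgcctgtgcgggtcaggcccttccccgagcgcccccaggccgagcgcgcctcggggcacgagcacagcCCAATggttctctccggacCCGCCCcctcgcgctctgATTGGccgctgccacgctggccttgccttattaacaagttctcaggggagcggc
Foxd3: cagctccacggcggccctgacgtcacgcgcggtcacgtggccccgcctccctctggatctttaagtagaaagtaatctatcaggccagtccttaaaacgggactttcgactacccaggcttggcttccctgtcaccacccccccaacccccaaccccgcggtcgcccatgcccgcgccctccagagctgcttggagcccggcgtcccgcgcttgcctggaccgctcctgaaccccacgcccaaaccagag

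The Zic1 stretch held an AP-2 motif that overlaps a GC box, the second GC box of that stretch, and 2 CCAAT boxes. Among 32817 RefSeq promoters of 250 bases, 13.7% held the AP-2 letters, 32.7% a GC box and 33.8% a CCAAT box. In Tcfap2b the single match was the homeobox motif, found in 7.2% of all promoters and also in a Tcfap2a window. Msx1 held an E-box, found in 17.2% of all promoters, with a GC box and 2 CCAAT boxes. The retinoic acid receptor half-site was in none of the 6 genes' windows and in 14.0% of all promoters, and the Foxd3 stretch held none of the motifs. GC content over the 250 bases before the start was 46.4% in Tcfap2b, against 65.6% in Foxd3, 66.0% in Zic1 and 68.0% in Msx1. These matches describe letters in the window only.

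In the control clones, differentiation without RA raised Msx1, Sox9, Pax3, Msx2, Snai2 and Tcfap2a, with log2 fold changes of 6.33, 4.63, 3.77, 3.75, 1.12 and 0.84. In EBs+RA, Zic1, Tcfap2b, Pax3 and Sox9 were higher than in EBs of the same day, and Foxd3 and Msx2 were lower. A gene was called when edgeR's quasi-likelihood test over all genes gave a Benjamini-Hochberg adjusted p below 0.1 and a log2 fold change beyond 0.5, the thresholds of the study. Of 8 specifiers with enough counts for the test, 6 were called higher in control EBs than in control mESCs, against 18.5% of all tested genes. Between control EBs and EBs+RA, 6 of 10 were called higher, against 23.3% of all genes, and 2 lower, against 20.7%. In such bulk samples, fewer cells of a type and less RNA per cell cannot be told apart.

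On the scale of CPM per kilobase of exon, which allows levels to be compared between genes, Msx1 stood first in control EBs at 51.1 ± 15.6 (SD, n = 3), followed by Msx2 at 30.4 and Foxd3 at 6.52, while Pax3 at 0.182, Zic1 at 0.0448 and Tcfap2b at 0.0239 were last. In control EBs+RA the order was Msx1 at 32.1, Msx2 at 11.5, Sox9 at 7.86, Snai2 at 5.94 and Zic1 at 4.47. Tcfap2b at 2.83, Pax3 at 2.30 and Tcfap2a at 2.25 came next, and Sox10 at 0.832 and Foxd3 at 0.297 were last. Control mESCs held mostly Foxd3, at 8.18 CPM per kilobase, and Msx2, at 2.20.

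**Figure D1:**
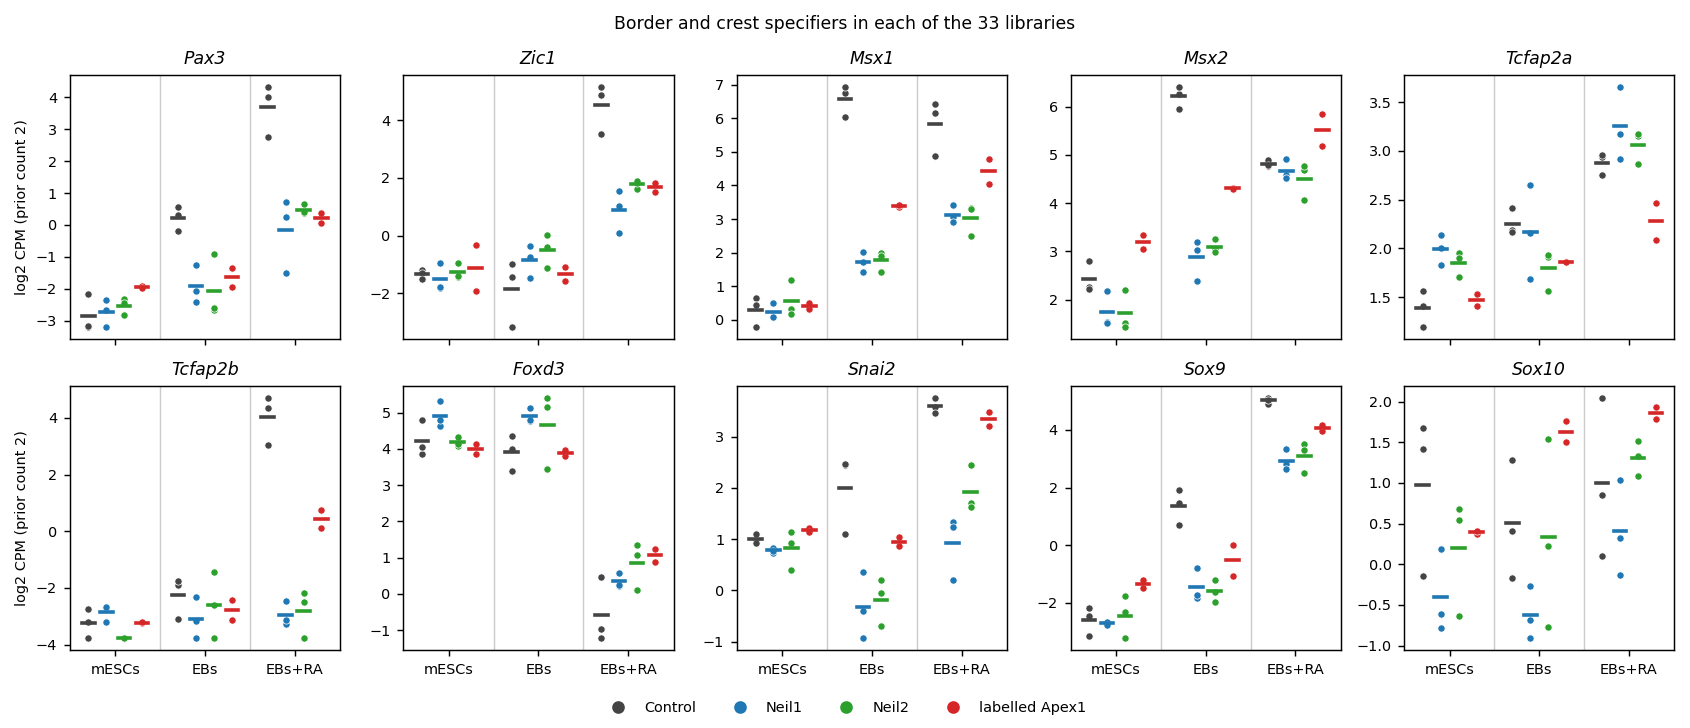
Log2 CPM (y, prior count 2) of each of the 10 specifiers in every library, by stage and genotype (x), with points for libraries and horizontal lines for means of log2 CPM. Control EBs+RA stand above all mutant EBs+RA libraries for Pax3, Tcfap2b, Zic1, Msx1 and Sox9, whereas the groups overlap for Sox10.

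In day 8 EBs without RA, the mutants held less Msx1, Msx2, Sox9, Snai2 and Pax3 than the controls, and Tcfap2a and Zic1 were not called in any of the 3 comparisons. All 3 comparisons use the same 3 control libraries. In Neil1 mutant EBs 6 of 9 tested specifiers were lower, against 13.1% of all genes, and 1 was higher, against 10.4%. Neil2 mutant EBs had 5 of 9 lower, against 7.69% of all genes, and none higher, against 8.65%. In EBs labelled Apex1 5 of 9 were lower, against 13.9%, and 1 was higher, against 11.9%. The median log2 fold change of the tested specifiers was -2.44 in Neil1, -2.28 in Neil2 and -1.20 in the libraries labelled Apex1, beside medians over all tested genes of -0.00058, 0.0226 and -0.00015. Without either duplicate labelled Apex1, 3 specifiers were called in place of 6.

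With RA, Pax3, Tcfap2b, Zic1, Msx1 and Sox9 were lower in each mutant than in the controls, Snai2 was lower in the Neil1 and Neil2 mutants, and Tcfap2a and Sox10 were not called. These comparisons also share their 3 control libraries. Neil1 mutant EBs+RA had 6 of 10 specifiers lower, against 19.9% of all genes, and none higher, against 21.2%. In Neil2 mutant EBs+RA 6 of 10 were lower, against 16.6%, and 1 was higher, against 18.3%. EBs+RA labelled Apex1 had 5 of 10 lower, against 10.9%, and 2 higher, against 13.9%. The median log2 fold change over the 10 specifiers was -2.37 in Neil1, -1.75 in Neil2 and -0.77 in the libraries labelled Apex1, beside 0.0015, 0.0047 and -0.0170 over all genes. In the libraries labelled Apex1 4 were called without control library 1 or duplicate 1, and 9 without control library 3, in place of 7. Control library 3 was the lowest of the EBs+RA controls for Pax3, Tcfap2b, Zic1 and Msx1, and the calls of these genes in the Neil1 and Neil2 mutants held when any 1 library was left out.

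**Figure D2:**
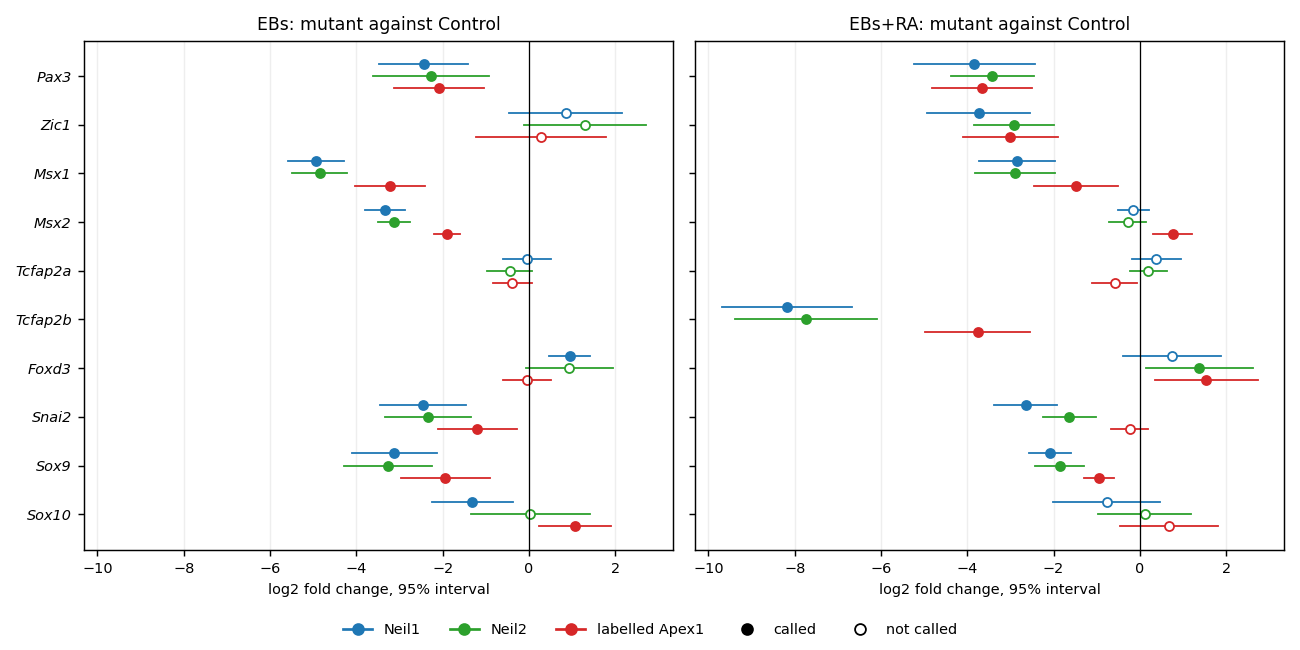
Log2 fold change against the control (x) of each tested specifier (y) in EBs and EBs+RA, with 95% intervals and filled points for calls. In EBs+RA, Tcfap2b lies lowest at -8.18 in Neil1 and -7.74 in Neil2, and Msx2, far below 0 in EBs, lies at -0.16 and -0.28.

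Undifferentiated mESCs held few differences. None of 6 tested specifiers was called by edgeR's quasi-likelihood test in Neil1 mutant mESCs, where 1.82% of all genes were, although 4 had an unadjusted p below 0.05 (Tcfap2a, Msx2, Sox10 and Foxd3) and DESeq2 called 1, Sox10 (-1.60, adjusted p = 0.0644), as did a fit of all 12 groups (-1.61, 0.0964). In Neil2 mutant mESCs none of 6 was called, against 1.83% of all genes, with 1 at an unadjusted p below 0.05 (Msx2) and none called by DESeq2. Msx2 was below all controls (4.61 to 6.88 CPM) in Neil1, at 2.77 to 4.46 CPM, and Neil2, at 2.63 to 4.49 CPM. Tcfap2a was above all controls (2.21 to 2.89 CPM) in both, at 3.48 to 4.33 and 3.19 to 3.79 CPM. Snai2 was below them in Neil1 only (1.59 to 1.70 against 1.82 to 2.06 CPM). The other specifiers overlapped the controls. How many of all genes stood apart in this way was not counted. In mESCs labelled Apex1, Pax3 (0.180 and 0.192 against at most 0.150 CPM) and Sox9 (0.289 and 0.359 against at most 0.150 CPM) were above all controls. Both had too few counts for the test. Snai2 was also above them (2.12 and 2.25 against at most 2.06 CPM) and was not called. Of 7 tested specifiers, 1 was called, against 16.9% of all genes. That gene was Msx2, at 8.21 and 10.1 CPM against 4.75, 4.61 and 6.88 CPM in the controls (log2 fold change 0.75 ± 0.25 SE, adjusted p = 0.0948). Its ranges do not overlap, but the call was lost without control library 1 (0.68, adjusted p = 0.217), without control library 2 (0.65, 0.257) and without either duplicate (0.89, 0.441 and 0.60, 0.471), and with the duplicates summed (0.75, 0.42). The numbers of all genes called in mESCs moved widely when 1 library was left out, from 0 to 2011 genes in Neil1 in place of 283, from 1 to 1494 in Neil2 in place of 286 and from 0 to 6154 in the libraries labelled Apex1 in place of 2751, each highest without control library 3. Without control mESC library 3, in which Sox10 was 0.831 CPM against 2.59 and 3.11 CPM, Sox10 was called lower in Neil1 (log2 fold change -2.01, adjusted p = 0.0263), Neil2 (-1.34, 0.0474) and the libraries labelled Apex1 (-1.21, 0.000956), and Foxd3 higher in Neil1 (0.98, 0.0477).

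Pax3, a paired-box factor of the border and dorsal neural tube (ENSMUSG00000004872, chromosome 1, 78097842 to 78193709 of NCBIM37, minus strand), was at most 0.150 CPM in control mESCs and rose with RA. Control EBs held 0.800, 1.40 and 1.18 CPM and control EBs+RA 20.1, 15.8 and 6.65 CPM, a log2 fold change of 3.71 ± 0.44 (SE, adjusted p = 0.000258). With RA the Neil1 clones held 1.59, 1.12 and 0.280 CPM and the Neil2 clones 1.22, 1.49 and 1.25 CPM. The duplicates labelled Apex1 held 0.973 and 1.23 CPM. Every mutant library was thus below the lowest control. The fitted difference between groups was 14.3-fold in Neil1 (log2 fold change -3.84 ± 0.61, adjusted p = 0.00292), 10.7-fold in Neil2 (-3.42 ± 0.42, 0.00104) and 12.7-fold in the libraries labelled Apex1 (-3.66 ± 0.51, 0.00275). Without RA, Pax3 was lower by 5.43-fold in Neil1 (adjusted p = 0.00286), 4.84-fold in Neil2 (0.0377) and 4.25-fold in the libraries labelled Apex1 (0.0074), on 14, 18 and 13 counts in all. The Neil2 call in EBs was lost without control library 2 (-2.10, adjusted p = 0.131) or Neil2 library 3 (-1.95, 0.14), and the call in EBs labelled Apex1 without duplicate 2 (-1.75, 0.101). In the order of the 12 groups, control EBs+RA stood apart at the top, and the next groups down to EBs labelled Apex1 each overlapped their neighbour.

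Zic1, a zinc finger factor that acts with Pax3 at the border (ENSMUSG00000032368, chromosome 9, 91252896 to 91260648, minus strand), rose with RA in the controls. It was 0.432, 0.0390 and 0.294 CPM in control EBs and 35.7, 29.4 and 11.3 CPM in control EBs+RA, 91.1-fold higher (log2 fold change 6.51 ± 0.63, adjusted p = 0.00011). Neil1 clones reached 2.83, 1.95 and 1.00 CPM with RA, Neil2 clones 2.96, 3.49 and 3.65 CPM, and the duplicates labelled Apex1 2.79 and 3.49 CPM. The highest mutant library was at 3.65 CPM and the lowest control at 11.3 CPM. The difference was 13.3-fold in Neil1 (-3.74 ± 0.52, adjusted p = 0.00157), 7.58-fold in Neil2 (-2.92 ± 0.40, 0.00167) and 8.00-fold in the libraries labelled Apex1 (-3.00 ± 0.48, 0.00486). Without RA, Zic1 was under 1 CPM in every library, with log2 fold changes of 0.85 in Neil1, 1.30 in Neil2 and 0.28 in the libraries labelled Apex1 that were not called. Its order began with control EBs+RA, then the 3 mutant EBs+RA groups, which did not overlap the groups beneath. Neil2 and Neil1 each overlapped the libraries labelled Apex1 between them, but not each other. Of its exon bases, 1.05% are shared with Zic4.

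Msx1, a homeobox repressor downstream of BMP signals (ENSMUSG00000048450, chromosome 5, 38211724 to 38215822, minus strand), carried the largest difference among the specifiers in EBs without RA. Control mESCs held 1.5, 1.28 and 0.791 CPM and control EBs 108, 123 and 65.1 CPM, 80.5-fold higher (log2 fold change 6.33 ± 0.31, adjusted p = 2.53e-06). Neil1 EBs reached only 4.00, 3.21 and 2.58 CPM, Neil2 EBs 3.91, 2.60 and 3.69 CPM, and EBs labelled Apex1 10.2 and 10.6 CPM. The groups stood far apart, 30.7-fold in Neil1 (-4.94 ± 0.28, adjusted p = 1.43e-05), 28.8-fold in Neil2 (-4.85 ± 0.28, 6.68e-05) and 9.33-fold in the libraries labelled Apex1 (-3.22 ± 0.32, 0.00146), and each call held when any 1 library was left out. With RA, the controls held 86.3, 70.8 and 29.5 CPM, the Neil1 clones 8.30, 10.5 and 7.49 CPM, the Neil2 clones 5.56, 9.93 and 9.71 CPM and the duplicates labelled Apex1 27.6 and 16.6 CPM. Msx1 was 7.21-fold lower in Neil1 (adjusted p = 0.00139) and 7.43-fold lower in Neil2 (0.00174). In the libraries labelled Apex1 the difference was 2.79-fold (-1.48 ± 0.43, 0.0433), with the higher duplicate just under the lowest control. That call was lost without control library 1 (-1.17, adjusted p = 0.21), control library 2 (-1.38, 0.2) or either duplicate (-1.90, 0.155 and -1.16, 0.256), with the duplicates summed (-1.52, 0.193) and without a filter on low counts (-1.49, 0.307). RA changed Msx1 in the controls by a log2 fold change of -0.64 that was not called (adjusted p = 0.213). It was called with the clone as a block (-0.72, 0.00605) and without control EBs+RA library 1 (-0.96, 0.0885).

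Msx2, the paralog of Msx1 (ENSMUSG00000021469, chromosome 13, 53562250 to 53568443, minus strand), was lower in mutant EBs but not in Neil1 and Neil2 mutant EBs+RA. Control EBs held 76.8, 85.3 and 62.0 CPM, Neil1 EBs 9.11, 8.14 and 5.17 CPM, Neil2 EBs 8.24, 7.81 and 9.44 CPM and EBs labelled Apex1 19.9 and 19.6 CPM. No mutant library came near the controls, and the difference was 10.1-fold in Neil1 (-3.34 ± 0.21, adjusted p = 9.81e-06), 8.78-fold in Neil2 (-3.13 ± 0.16, 3.57e-05) and 3.73-fold in the libraries labelled Apex1 (-1.90 ± 0.14, 1.21e-05). With RA the controls held 27.1, 29.7 and 27.6 CPM, lower than without it (-1.38 ± 0.13, adjusted p = 5.21e-05). Neil1 clones stood at 24.0, 30.1 and 22.8 CPM, Neil2 clones at 16.6, 25.5 and 27.4 CPM, and the duplicates labelled Apex1 at 57.4 and 36.4 CPM. Neil1 and Neil2 libraries overlapped the controls, with log2 fold changes of -0.16 (95% interval -0.52 to 0.21) and -0.28 (-0.71 to 0.15). Both duplicates labelled Apex1 were above the controls (0.76 ± 0.19, adjusted p = 0.0299), and that call was lost without control library 1 (0.73, 0.102) or duplicate 1 (0.39, 0.299). The longest identical run between Msx1 and Msx2 exons is 22 bases, below the read length of 51, and no pair of paralogs checked shared a run of a read's length.

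Tcfap2b, an AP-2 factor of the crest and its sympathetic derivatives (ENSMUSG00000025927, chromosome 1, 19198995 to 19228815, plus strand), had the largest difference of all 10 genes with RA. Control EBs+RA held 804, 551 and 246 counts (25.9, 20.3 and 8.10 CPM). Neil1 clones held 1, 3 and 1 counts, Neil2 clones 4, 0 and 3 counts, and the duplicates labelled Apex1 24 and 47 counts (1.02 and 1.61 CPM). The Neil1 and Neil2 counts are close to the limit of 3 counts, and control EBs held 2, 5 and 6 counts. By summed counts the controls stood 301.9-fold above Neil1 (exact 95% interval for counting error 129.1 to 931.1) and 216.9-fold above Neil2 (105.0 to 540.4). The fitted log2 fold changes were -8.18 ± 0.66 (adjusted p = 0.000165) in Neil1, -7.74 ± 0.72 (0.00038) in Neil2 and -3.75 ± 0.53 (0.00305) in the libraries labelled Apex1, a 13.5-fold difference. In the order of groups, control EBs+RA came first and EBs+RA labelled Apex1 next, both without overlap, and every library of the other groups was at or below 0.293 CPM. In EBs without RA the gene had too few counts for a test, with 0, 3 and 1 counts in Neil1, 9, 0 and 2 counts in Neil2 and 1 and 3 counts in the duplicates labelled Apex1.

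Tcfap2a, the AP-2 factor of surface ectoderm, border and crest (ENSMUSG00000021359, chromosome 13, 40811044 to 40829192, minus strand), was not called in any mutant against the controls by edgeR's quasi-likelihood test. Control mESCs held 2.89, 2.59 and 2.21 CPM, control EBs 4.47, 4.41 and 5.26 CPM and control EBs+RA 7.56, 6.66 and 7.70 CPM. It was thus higher in EBs than in mESCs, 1.79-fold (adjusted p = 0.0188), and in EBs+RA than in EBs, 1.58-fold (0.0158). With RA, Neil1 clones stood at 8.95, 7.50 and 12.6 CPM and Neil2 clones at 8.82, 7.20 and 8.94 CPM, overlapping the controls, with log2 fold changes of 0.38 (95% interval -0.18 to 0.94) and 0.19 (-0.24 to 0.62). The duplicates labelled Apex1, at 5.46 and 4.18 CPM, were below the lowest control, but the log2 fold change of -0.58 was not called (adjusted p = 0.11), although it was by DESeq2 (-0.60, 0.0725), in a fit of all 12 groups (-0.62, 0.078) and without control library 3 (-0.56, 0.0591). In EBs the log2 fold changes were -0.04, -0.45 and -0.39 in Neil1, Neil2 and the libraries labelled Apex1. Of its exon bases, 3.42% are shared with Gm16989.

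Snai2, a zinc finger repressor of cell adhesion in emigrating crest (ENSMUSG00000022676, chromosome 16, 14705945 to 14709488, plus strand), was lower in Neil1 and Neil2 mutants at both EB stages. Control EBs held 5.40, 5.46 and 2.06 CPM, Neil1 EBs 0.451, 1.21 and 0.684 CPM, Neil2 EBs 1.07, 0.896 and 0.547 CPM and EBs labelled Apex1 1.98 and 1.74 CPM. All mutant libraries were below the lowest control, the higher duplicate labelled Apex1 only just. The fitted difference between groups was 5.48-fold in Neil1 (-2.45 ± 0.44, adjusted p = 0.00285), 5.04-fold in Neil2 (-2.33 ± 0.44, 0.0109) and 2.29-fold in the libraries labelled Apex1 (-1.20 ± 0.41, 0.0525). The last call was lost without control library 1 (-1.01, adjusted p = 0.116), control library 2 (-1.0, 0.116) or either duplicate (-1.29, 0.191 and -1.11, 0.259), and with the duplicates summed (-1.20, 0.202). Control EBs+RA held 11.8, 11.0 and 13.4 CPM, Neil1 EBs+RA 2.46, 2.27 and 1.08 CPM, Neil2 EBs+RA 5.41, 3.17 and 3.03 CPM and EBs+RA labelled Apex1 9.18 and 11.0 CPM. Neil1 stood 6.28-fold lower (-2.65 ± 0.32, adjusted p = 0.000833) and Neil2 3.11-fold lower (-1.64 ± 0.27, 0.00333). The libraries labelled Apex1 reached the controls' range, with a log2 fold change of -0.24 (95% interval -0.67 to 0.20). In the controls Snai2 rose from mESCs to EBs by 2.18-fold (adjusted p = 0.0361), which was lost without control EBs library 1 (0.94, 0.129) or 2 (0.93, 0.129), and with RA by 2.85-fold (0.00493).

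Foxd3, a forkhead repressor needed by pluripotent cells and later by premigratory crest (ENSMUSG00000067261, chromosome 4, 99322990 to 99325362, plus strand, a single exon), fell with RA in the controls. It was 14.4, 16.5 and 27.4 CPM in control mESCs, 15.8, 20.2 and 10.4 CPM in control EBs and 0.354, 0.441 and 1.32 CPM in control EBs+RA, a 21.3-fold fall with RA (-4.41 ± 0.48, adjusted p = 0.000156). Neil1 EBs held 27.3, 34.6 and 27.6 CPM, all above the controls (0.94 ± 0.21, adjusted p = 0.0103). Neil2 EBs were spread over 10.9, 35.4 and 42.2 CPM (0.93, not called, adjusted p = 0.221), and without the low first library the difference was called (1.31, 0.00383). EBs labelled Apex1, at 13.9 and 15.6 CPM, lay among the controls. With RA, Neil1 clones held 1.09, 1.41 and 1.12 CPM (0.75, 95% interval -0.39 to 1.89), called only without control library 3 (1.56, adjusted p = 0.0191). Neil2 clones at 1.00, 2.03 and 2.47 CPM (1.37 ± 0.54, adjusted p = 0.0846) and the duplicates labelled Apex1 at 2.28 and 1.78 CPM (1.54 ± 0.52, 0.0716) were called higher. The Neil2 call was lost without control libraries 1 (1.05, adjusted p = 0.251) or 2 (1.14, 0.234) or Neil2 libraries 2 (1.30, 0.167) or 3 (1.12, 0.23). The other was lost without control libraries 1 (1.22, adjusted p = 0.185) or 2 (1.31, 0.158) or either duplicate (1.35, 0.346 and 1.71, 0.189), and with the duplicates summed (1.52, 0.254). By group means Foxd3 was lower with RA in every genotype, 21.97-fold in the controls, 24.74-fold in Neil1, 16.1-fold in Neil2 and 7.253-fold in the libraries labelled Apex1. Of its exon bases, 3.75% are shared with BX005053.1. All 4 EBs+RA groups came last in the order of groups, below and without overlap with the rest, which overlapped one another from neighbour to neighbour.

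Sox9, a SoxE factor of premigratory crest, neural progenitors and cartilage (ENSMUSG00000000567, chromosome 11, 112643538 to 112649074, plus strand), was the specifier with the clearest order of groups, with no overlap at 5 of the 11 steps. Control mESCs held at most 0.150 CPM, control EBs 2.70, 3.74 and 1.54 CPM and control EBs+RA 30.2, 34.5 and 32.9 CPM. It was 24.8-fold higher in EBs than in mESCs (4.63 ± 0.53, adjusted p = 0.000214) and 12.5-fold higher in EBs+RA than in EBs (3.64 ± 0.27, 1.8e-05). Neil1 EBs held 0.501, 0.209 and 0.228 CPM, Neil2 EBs 0.358, 0.256 and 0.182 CPM and EBs labelled Apex1 0.403 and 0.945 CPM. They were lower by 8.70-fold in Neil1 (adjusted p = 0.000536), 9.63-fold in Neil2 (0.00292) and 3.84-fold in the libraries labelled Apex1 (0.0108), where the call was lost without duplicate 1 (-1.46, 0.109). With RA, Neil1 clones held 10.0, 6.96 and 6.17 CPM, Neil2 clones 11.3, 5.65 and 9.85 CPM, and the duplicates labelled Apex1 15.4 and 17.9 CPM. Every mutant library was below every control, and the fitted difference between groups was 4.27-fold in Neil1 (-2.09 ± 0.21, adjusted p = 0.00041), 3.63-fold in Neil2 (-1.86 ± 0.25, 0.00149) and 1.93-fold in the libraries labelled Apex1 (-0.95 ± 0.15, 0.00524). By group means Sox9 was higher with RA than without it in all 3 mutants, 24.72-fold in Neil1, 33.68-fold in Neil2 and 24.69-fold in the libraries labelled Apex1.

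Sox10, the SoxE factor of migrating crest and its glial and pigment derivatives (ENSMUSG00000033006, chromosome 15, 78985343 to 78994920, minus strand), stayed under 5 CPM in every library and was not called between stages in the controls, except lower in EBs than in mESCs without control mESC library 3 (-0.98, adjusted p = 0.0556). Control EBs held 1.25, 0.819 and 2.35 CPM and control EBs+RA 0.998, 1.73 and 4.05 CPM (0.65, not called, adjusted p = 0.365). Neil1 EBs were at 0.551, 0.459 and 0.760 CPM, below the controls (-1.31 ± 0.43, adjusted p = 0.0418), a call lost without control library 3 (-0.83, 0.144) or Neil1 libraries 1 (-1.27, 0.109) or 2 (-1.15, 0.137) and in a fit of all 12 groups (-1.31, 0.129). Neil2 EBs, at 2.83, 0.512 and 1.09 CPM, spanned the controls. EBs labelled Apex1, at 3.31 and 2.76 CPM, were above them (1.06 ± 0.38, adjusted p = 0.0565), which was lost without control library 1 (0.93, 0.141) or 2 (0.79, 0.118) or either duplicate (0.93, 0.266 and 1.18, 0.169), with the duplicates summed (1.06, 0.192) and in a fit of all 12 groups (1.06, 0.234). With RA the log2 fold changes were -0.77 (95% interval -2.01 to 0.46) in Neil1, 0.11 (-0.97 to 1.19) in Neil2 and 0.68 (-0.46 to 1.82) in the libraries labelled Apex1. The last was called without control library 3 (1.40, adjusted p = 0.00364). These intervals are wide.

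The RA effect on Msx1, Msx2, Zic1 and Tcfap2b differed between Neil1 or Neil2 mutants and the controls, and in the libraries labelled Apex1 that on Msx2 and Zic1 did. The test was the interaction of genotype and RA, which was called for 4 of 10 specifiers in Neil1, against 29.6% of all genes in either direction, for 4 of 10 in Neil2, against 15.0%, and for 2 of 10 in the libraries labelled Apex1, against 15.7%. The counts in Neil1 and in the libraries labelled Apex1 were thus near the share of all genes. By group means, Msx2 with RA stood at 0.3766 of its level without RA in the controls, and at 3.431 in Neil1, 2.728 in Neil2 and 2.376 in the libraries labelled Apex1. For Msx1 these ratios were 0.629, 2.686, 2.469 and 2.116. For both genes the mean with RA was thus below that without RA in the controls and above it in each mutant. RA was not tested within a mutant. By group means, Zic1 was 99.8-fold higher with RA in the controls, 3.79-fold in Neil1, 5.022-fold in Neil2 and 9.411-fold in the libraries labelled Apex1. Pax3 was 12.61-fold higher in the controls against 4.727-fold, 6.272-fold and 4.312-fold, and this difference was not called in any mutant. With the clone as a block, taken from the shared replicate number of each EBs and EBs+RA pair, the interaction was also called for Sox9 in Neil1 (log2 difference 0.99, adjusted p = 0.0984) and Neil2 (1.35, 0.0527) and for Msx1 in the libraries labelled Apex1 (1.81, 0.00962). For Sox9 in Neil2 it was also called by DESeq2 (1.39, 0.0674), without a filter on low counts (1.41, 0.0876) and in a fit of all 12 groups (1.39, 0.0769), while that of Msx1 in Neil2 was lost without the filter (1.98, adjusted p = 0.121). In the libraries labelled Apex1, Foxd3 was called by DESeq2 (1.55, 0.0357) and Msx1 by DESeq2 (1.70, 0.0997) and in a fit of all 12 groups (1.71, 0.0351), and Zic1 was lost without the filter (-3.29, 0.244) and with the duplicates summed (-3.27, 0.286). The call of Tcfap2b was lost without Neil1 EBs library 2 (-5.71, adjusted p = 0.218) and without Neil2 EBs library 1 (-6.22, 0.159). For Sox9 a call was gained in Neil1 without control EBs library 3 (1.31, adjusted p = 0.0592) or Neil1 EBs library 1 (1.52, 0.0787), and in Neil2 without control EBs library 3 (1.64, 0.0516), Neil2 EBs library 1 (1.68, 0.0963) or Neil2 EBs+RA library 2 (1.66, 0.0506). In the libraries labelled Apex1, the call of Zic1 was lost in 8 of 10 fits that left out 1 library, and Pax3 (-1.95, 0.022), Tcfap2b (-3.40, 0.0438), Foxd3 (2.38, 0.0022) and Msx1 (1.38, 0.0805) were called without control EBs+RA library 3. Without control EBs library 3 Foxd3 (1.78, 0.0807), Sox9 (1.23, 0.0704) and Snai2 (1.27, 0.0133) were.

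**Figure D3:**
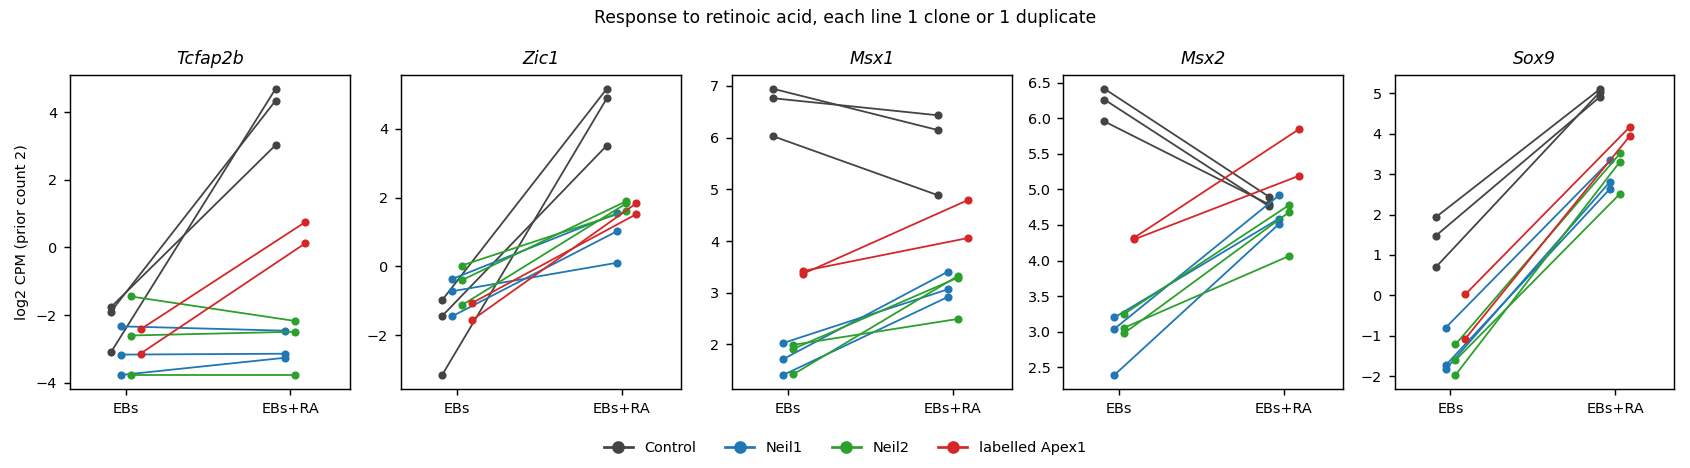
Log2 CPM (y, prior count 2) of Tcfap2b, Zic1, Msx1, Msx2 and Sox9 in EBs and EBs+RA (x), with 1 line for each pair of equally numbered libraries of a genotype, which are duplicates in the libraries labelled Apex1. For Msx2 the control lines go down from 62.0 to 85.3 CPM in EBs to 27.1 to 29.7 CPM in EBs+RA, and all mutant lines run upward.

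Neil1 and Neil2 mutants were compared with each other directly. Among 7 tested specifiers in EBs none was called by edgeR's quasi-likelihood test, with 1 at an unadjusted p below 0.05 (Sox10), and among all genes 0.0% were called, with 735 of 15294 at an unadjusted p below 0.05 and 1 called by DESeq2 and 1 without a filter on low counts. In EBs+RA none of 9 was called, with 2 at an unadjusted p below 0.05 (Snai2 and Sox10), and 0.0% of all genes, with 1608 of 15884 at an unadjusted p below 0.05 111 called by DESeq2 and 546 in a fit of all 12 groups, none of them a specifier in either comparison. The log2 difference of Neil2 over Neil1 with RA was 0.98 for Snai2 (95% interval 0.09 to 1.88), 0.20 for Sox9 (-0.51 to 0.91), -0.08 for Msx1 (-0.70 to 0.54), -0.16 for Msx2 (-0.65 to 0.33) and 0.39 for Pax3 (-0.80 to 1.58). These intervals do not show that the mutants are alike.

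The libraries labelled Apex1 held more of several specifiers than the mean of the Neil1 and Neil2 mutants. In EBs 4 of 8 were called higher, against 9.32% of all genes, and none lower, against 9.77%. They were Msx1 (log2 difference 1.66, adjusted p = 0.00135), Msx2 (1.33, 0.00249), Sox10 (1.69, 0.0345) and Snai2 (1.20, 0.0518), and the calls of Sox10 (1.56, 0.212 and 1.82, 0.182) and Snai2 (1.10, 0.285 and 1.29, 0.253) were lost without either duplicate. Both were also lost with the duplicates summed (1.70, 0.176 and 1.20, 0.243). Foxd3 was called lower without Neil2 library 1 (-1.20, 0.000166) and in a fit of all 12 groups (-0.97, 0.0914), and Sox9 higher in that fit (1.26, 0.0461) and without Neil1 library 1 (1.47, 0.0853) or Neil2 library 1 (1.38, 0.0521). With RA 6 of 10 were higher, against 13.5%, and 1 lower, against 13.1%. Tcfap2b (4.14, adjusted p = 0.00168), Snai2 (1.86, 0.00376), Msx1 (1.34, 0.0067), Sox9 (0.98, 0.0293), Sox10 (0.96, 0.0524) and Msx2 (0.93, 0.0161) were higher and Tcfap2a (-0.92, 0.0353) was lower. Pax3 (-0.08, 95% interval -1.17 to 1.01) and Zic1 (0.28, -0.48 to 1.03) were not called. Without duplicate 1 the calls of Msx1 (0.93, adjusted p = 0.153), Msx2 (0.57, 0.268), Sox9 (1.09, 0.148), Sox10 (1.03, 0.221) and Tcfap2a (-1.12, 0.142) were lost, and without duplicate 2 those of Sox9 (0.88, 0.201), Sox10 (0.90, 0.25) and Tcfap2a (-0.73, 0.256). Sox10 was also lost without Neil2 library 3 (0.90, 0.103) and in a fit of all 12 groups (0.99, 0.128). With the duplicates summed, Sox9 (1.0, 0.168), Sox10 (0.98, 0.229) and Tcfap2a (-0.93, 0.188) were lost.

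Other factors of the border and crest were also described, from a list of 22 genes of which 21 were found. In EBs+RA 11 of 19 tested were lower and 4 higher in Neil1, 11 of 20 lower and 5 higher in Neil2, and 8 of 21 lower and 5 higher in the libraries labelled Apex1, with medians of -1.01, -1.02 and -0.30 on the log2 scale. Of all genes, 19.9%, 16.6% and 10.9% were lower and 21.2%, 18.3% and 13.9% higher, so the shares higher in Neil1 and Neil2 were near those of all genes. Msx3, a dorsal neural tube relative of Msx1, was at -4.83 in Neil1 (adjusted p = 0.000432), -4.85 in Neil2 (0.000331) and -3.58 in the libraries labelled Apex1 (0.000792). Pax7, the paralog of Pax3, was at -3.43, -2.92 and -1.30, Twist1, a bHLH factor of crest mesenchyme, at -3.20, -2.24 and -0.84, and Zic4 at -2.90, -2.68 and -3.13, all called. Tcfap2c and Prdm1 were called higher in each comparison. Without RA, where 13.1%, 7.69% and 13.9% of all genes were lower and 10.4%, 8.65% and 11.9% higher, the counts were 7 lower and 3 higher of 17 in Neil1, 5 and 2 of 17 in Neil2, and 5 and 4 of 17 in the libraries labelled Apex1. In mESCs 1, 2 and none of 18 were lower and none higher, beside 1.82%, 1.83% and 16.9% of all genes called in either direction.

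Signals of border induction were described from a list of 13 genes, which also holds antagonists of BMP (Nog, Chrd and Fst) and WNT (Dkk1). In EBs without RA, of 12 tested, 8 were lower and 1 higher in Neil1, 8 and 1 in Neil2, and 7 and 1 in the libraries labelled Apex1. Of all genes, 13.1%, 7.69% and 13.9% were lower and 10.4%, 8.65% and 11.9% higher. The lower genes included Nog and Dkk1 in each, and Fst in Neil2 and the libraries labelled Apex1. These counts are thus not of inducing signals alone. Bmp4, which induces Msx genes in the embryo, was at -2.72 in Neil1, -2.63 in Neil2 and -2.09 in the libraries labelled Apex1 on the log2 scale. With RA, 5 of 12 were lower and 3 higher in Neil1, 4 and 1 in Neil2, and 3 and 2 in the libraries labelled Apex1, against 19.9%, 16.6% and 10.9% of all genes lower and 21.2%, 18.3% and 13.9% higher. Among these, Chrd was lower and Nog higher in Neil1, and Fst was lower in the libraries labelled Apex1. Bmp4 was then at -1.88 (adjusted p = 0.00301) and -1.28 (0.00601) in Neil1 and Neil2, and higher at 0.65 (0.0877) in the libraries labelled Apex1. Bmp7 was at -1.99 in Neil1 (adjusted p = 0.000516), -1.75 in Neil2 (0.001) and -0.25 in the libraries labelled Apex1 (not called). Wnt1, a signal of the dorsal midline, had no count in EBs without RA and was at -6.05, -6.15 and -4.71 with RA, and Dll1, a Notch ligand, at -2.82, -2.74 and -2.36. In mESCs, 1 of 10 was lower in Neil1, 1 of 11 in Neil2, and 1 lower and 3 higher of 12 in the libraries labelled Apex1. Of all genes in mESCs, 1.82%, 1.83% and 16.9% were called in either direction.

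Genes of crest derivatives, a list of 16, were mixed. With RA, 7 of 13 tested were lower and 2 higher in Neil1, 6 and 4 in Neil2, and 4 and 3 in the libraries labelled Apex1, against 19.9%, 16.6% and 10.9% of all genes lower and 21.2%, 18.3% and 13.9% higher. Dct, a melanin enzyme, was at -3.53, -2.45 and -2.55 on the log2 scale, and Ednrb, the endothelin receptor of crest, at -2.83, -2.41 and -1.22, all called. Ngfr, a receptor of crest stem cells, was at -2.58 in Neil1 and -2.47 in Neil2, called in both, and at -0.14 in the libraries labelled Apex1, not called. Erbb3 and Prph were among the genes called higher in each. Without RA, 2 of 12 were lower and 1 higher in Neil1, 1 and 1 of 11 in Neil2, and 4 and 1 of 12 in the libraries labelled Apex1. Of all genes, 13.1%, 7.69% and 13.9% were lower and 10.4%, 8.65% and 11.9% higher, so the Neil1 and Neil2 counts were near the share of all genes. In mESCs none of 9 and none of 10 were called in Neil1 and Neil2, and 1 of 11 was lower and 2 higher in the libraries labelled Apex1. The shares of all genes called there in either direction were 1.82%, 1.83% and 16.9%.

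Markers of other cell types moved with the same groups, and their part in the results above was not tested. In EBs, 13.1%, 7.69% and 13.9% of all genes were lower in Neil1, Neil2 and the libraries labelled Apex1, and 10.4%, 8.65% and 11.9% were higher. In EBs without RA, 5 of 5 tested early mesoderm markers, such as T and Mixl1, were lower in each mutant, and their summed level was 257 to 386 CPM in controls, 25.8 to 48.1 CPM in Neil1, 33.5 to 41.4 CPM in Neil2 and 112 to 133 CPM in the libraries labelled Apex1. Pluripotency markers were higher for 5, 4 and 4 of 6, from 1617 to 1750 CPM in controls to 2475 to 2823 CPM in Neil1, 1870 to 2980 CPM in Neil2 and 2877 to 2935 CPM in the libraries labelled Apex1. Surface ectoderm markers were lower for 3 of 5, 2 of 6 and 4 of 6, at 1192 to 1780 CPM in controls, 476 to 739 CPM in Neil1, 311 to 678 CPM in Neil2 and 160 to 190 CPM in the libraries labelled Apex1, where 1 was higher. Krt8 and Krt18 were among the lower genes in each, and in Neil2 no other gene of the list was called lower. Neither is particular to surface ectoderm, so these values do not show a change of surface ectoderm alone. Neural progenitor markers, of which 5 of 6 were found, were lower for 2 (Nes and Sox11) and higher for 2 (Sox2 and Pax6) in each mutant (354 to 375 CPM in controls against 499 to 618, 459 to 622 and 503 to 603 CPM). Their sum was 473 to 582 CPM in undifferentiated control mESCs, above that in control EBs. A higher sum in mutant EBs therefore does not show more neural progenitors.

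With RA, neural progenitor markers were lower for 5 of 5 in Neil1, 3 of 5 in Neil2 and 3 of 5 in the libraries labelled Apex1, at 235 to 429 CPM in controls, 47.2 to 95.2 CPM in Neil1, 70.0 to 126 CPM in Neil2 and 174 to 187 CPM in the libraries labelled Apex1. Of all genes, 19.9%, 16.6% and 10.9% were lower and 21.2%, 18.3% and 13.9% higher, so counts of 1 gene in a list were near these shares. Pluripotency markers were higher for 5, 6 and 5 of 6 (74.3 to 114 CPM in controls against 253 to 330, 172 to 491 and 489 to 619 CPM). Surface ectoderm markers were higher for 5, 3 and 2 of 6, at 820 to 1424 CPM in controls, 1862 to 4093 CPM in Neil1, 1466 to 1835 CPM in Neil2 and 915 to 1028 CPM in the libraries labelled Apex1. Krt8 and Krt18, not particular to surface ectoderm, were among the higher genes in Neil1 and Neil2, and Grhl3 was in each comparison. Chondrocyte markers, which matter beside Sox9, were lower for 3 and higher for 2 of 5 in Neil1, 3 and 3 of 6 in Neil2, and 1 and 2 of 6 in the libraries labelled Apex1 (124 to 232 CPM in controls against 28.5 to 45.8, 52.5 to 55.7 and 140 to 152 CPM). Early mesoderm markers were lower for 1 and higher for 2 of 4 in Neil1, 1 and 2 of 5 in Neil2, and 0 and 3 of 5 in the libraries labelled Apex1 (18.9 to 21.3 CPM in controls against 10.6 to 13.2, 10.6 to 19.8 and 28.7 to 33.4 CPM).

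Paraxial mesoderm and sclerotome markers stood at 14.7 to 15.6 CPM in control EBs, with 2 lower and 1 higher of 4 in Neil1, 1 and 1 in Neil2, and 0 and 1 in the libraries labelled Apex1 (20.6 to 28.9, 22.9 to 27.7 and 23.5 to 28.6 CPM), and Nkx3-2 had no count in Neil1 and Neil2 EBs. With RA their sum was 36.6 to 39.2 CPM in controls against 8.24 to 11.4, 11.5 to 18.8 and 29.8 to 30.1 CPM, with 1 lower and 2 higher of 4, 1 and 3 of 5, and 1 and 2 of 5. Visceral endoderm markers were not called in Neil1 and Neil2 EBs and were lower for 5 of 6 in EBs labelled Apex1 (206 to 418 CPM in controls against 309 to 497, 110 to 505 and 47.7 to 60.4 CPM). In EBs+RA 4 of 6 were higher in Neil1, and none was called in the others (99.7 to 346 CPM in controls against 326 to 651, 97.5 to 390 and 114 to 135 CPM). Chondrocyte markers in EBs were lower for 1 of 6 in Neil1, lower for 1 and higher for 1 in Neil2, and lower for 2 and higher for 1 in the libraries labelled Apex1 (30.0 to 32.9 CPM in controls against 30.6 to 38.8, 38.0 to 51.0 and 34.8 to 40.2 CPM). Of all genes in EBs, 13.1%, 7.69% and 13.9% were lower and 10.4%, 8.65% and 11.9% higher. With RA these shares were 19.9%, 16.6% and 10.9% lower and 21.2%, 18.3% and 13.9% higher. Counts of 1 gene in these lists were near the shares of all genes.

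**Figure D4:**
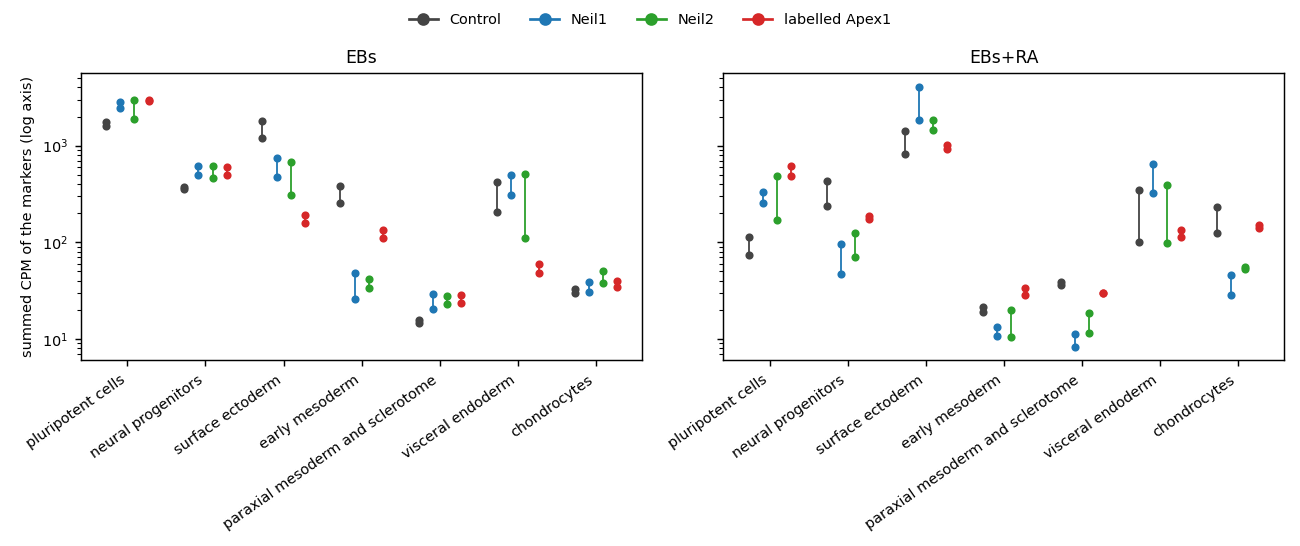
Summed CPM of 7 marker lists (x) on a log axis (y) in EBs and EBs+RA, with points at the lowest and highest library of each genotype. Early mesoderm markers of control EBs, at 257 to 386 CPM, lie above those of all mutants, and neural progenitor markers of control EBs+RA, at 235 to 429 CPM, lie above them as well.

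Likeness was measured by Pearson's r of log2 CPM over the 33 libraries, among 17963 genes, as a description of libraries that share clones and stages. Msx1 was most like Smad1 (r = 0.948), Unc5c (0.938) and Hes1 (0.936), and Msx2 most like Prtg (0.957), Hes1 (0.936) and Suv39h1 (0.932). The genes nearest to Zic1 were Tshz3 (0.941), its neighbour Zic4 (0.937) and D930007P13Rik (0.934). For Pax3 they were Nedd9 (0.942), Pafah1b2 (0.940) and Mpdz (0.937), and for Tcfap2b Tmtc4 (0.939), 2610017I09Rik (0.936) and Epha7 (0.934). Sox9 had the closest matches, Hoxb3os (0.982), Tshz1 (0.977) and Zfp503 (0.975), and Foxd3 followed with Eif2d (0.977), Mybl2 (0.967) and Tmprss11d (0.967). Tcfap2a lay near Tmem9b (0.957), Kdelr2 (0.941) and Manbal (0.939), Snai2 near Rbms3 (0.913), Cd248 (0.910) and Olfml3 (0.909), and Sox10 near Trim45 (0.841), Fn3k (0.836) and Gm5617 (0.829). Among the specifiers, Msx1 and Msx2 (0.908) and Pax3 and Sox9 (0.906) ran together, and Foxd3 ran opposite to Sox9 (-0.906) and Zic1 (-0.877).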

How the data were processed

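RNA-seq libraries of mESCs, EBs and EBs+RA were made by the authors with an unstranded kit and read for 51 cycles. Per the study's methods and processing notes, reads were aligned with TopHat2 version 2.0.9 and Bowtie2 version 2.1.0 to NCBIM37 and counted per gene with HTSeq version 0.5.4, giving the raw counts per gene that the authors deposited for each library. Entries that name no gene, 21.79% to 30.43% of reads, were left out. Samples were grouped by their labels. The specifiers and all gene lists were chosen with earlier results of these data known, and the genes named are the 10 specifiers, their 3 nearest genes by correlation and, per pathway list, up to 4 genes with the largest change in Neil1 EBs+RA called in both Neil mutants, and the targeted genes. Tcfap2c, Prdm1, Erbb3, Prph and Nkx3-2 were named after their values were seen, and T and Mixl1 as examples of a list. Krt8, Krt18 and the antagonists Nog, Chrd, Fst and Dkk1 were also named after their values were seen. Some genes that this rule names are not reported here.

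Counts were tested over all genes with edgeR version 4.0.16 (filterByExpr, TMM, robust quasi-likelihood fit, Benjamini-Hochberg adjusted p) and limma version 3.58.1 under R version 4.3.3, with calls at an adjusted p below 0.1 and a log2 fold change beyond 0.5. The authors used DESeq2, run here (version 1.42.0) as an alternative, beside other scaling, filters, blocks, thresholds, fits and libraries left out. SE is the log2 fold change divided by the square root of F, and log2 CPM has a prior count of 2. On simulated counts of Neil1 against control EBs+RA, 87 of 100 genes with a log2 change of 1 were recovered, with 25 false calls among 16023. For the interaction of genotype and RA in Neil1, 43 of 100 were recovered at a log2 change of 1 and 99 of 100 at 2, with 8 false calls among 16408. The simulation gave every gene the same dispersion and changed only genes above a set expected count. These rates therefore do not apply to specifiers with few counts or a wider spread between clones. Libraries of 1 group differed beyond counting noise in all 30 pairs. The sample titles give replicate numbers, and EBs and EBs+RA of the same number were taken to be the same clone. Their deviations correlated (r = 0.158 to 0.353, against -0.299 to 0.0906 for different numbers), so the clone block, an alternative fit, pairs them. The main fits of control EBs+RA against EBs and of the interaction used no block and left this pairing out. Between control mESCs and control EBs r was -0.088 to 0.0906 for the same number and -0.147 to 0.129 for different ones. Whether a shared clone or a shared culture lies behind the EBs and EBs+RA pairs was not tested. The other shared numbers do not pair mutants with controls. P-values measure the spread between clones. For the libraries labelled Apex1 they pool the spread between clones of the other group with that of technical duplicates entered as separate libraries. These p-values therefore do not measure a spread between Apex1 clones.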

Additional observations from a re-analysis of the deposited data

Results flagged for a closer look

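The effect of RA on 4 specifiers differed between the controls and mutants by the interaction of genotype and RA in edgeR's quasi-likelihood test. Of 10 specifiers, 4 were called in Neil1, 4 in Neil2 and 2 in the libraries labelled Apex1. Of all genes, 29.6%, 15.0% and 15.7% were called in either direction. The counts in Neil1 and in the libraries labelled Apex1 were thus near the share of all genes. Each value is the log2 fold change with RA in the mutant less that in the controls. For Msx2 it was 3.19 ± 0.27 (SE, adjusted p = 1.5e-05) in Neil1, 2.83 ± 0.25 (2.82e-05) in Neil2 and 2.64 ± 0.26 (0.000157) in the libraries labelled Apex1. Msx1 had 2.10 ± 0.52 (adjusted p = 0.0151) in Neil1 and 1.94 ± 0.51 (0.0281) in Neil2. Zic1 had -4.56 ± 0.88 (adjusted p = 0.0039) in Neil1, -4.22 ± 0.75 (0.0033) in Neil2 and -3.27 ± 1.07 (0.0848) in the libraries labelled Apex1, the last called in 2 of 10 fits that left out 1 library. Tcfap2b had -6.95 ± 1.78 (adjusted p = 0.0151) in Neil1 and -7.79 ± 1.46 (0.00477) in Neil2, on 4 and 11 counts in mutant EBs and 5 and 7 counts in mutant EBs+RA. The 3 mutants share the control libraries.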

How the results depend on the processing

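Of results for single specifiers, 94 were called in at least 1 fit, and none of these changed direction under an alternative. Of the 64 never called, 29 changed sign in some alternative, among them Tcfap2a in Neil1 EBs (-0.04, range -0.32 to 0.15), Sox10 in Neil2 EBs (0.03, -0.89 to 0.53) and EBs+RA (0.11, -0.25 to 0.82), Zic1 in EBs labelled Apex1 (0.28, -0.14 to 0.57) and the RA effect on Pax3 in Neil2 (-1.18, -1.54 to 0.15). For the 94, other settings gave the same call 556 times, a call where there was none 19 times and no call where there was one 27 times, and fits without 1 library 582, 25 and 58 times. The number of specifiers called in Neil1 mESCs was 1 with DESeq2 and with all 12 groups in 1 fit, in place of 0. In mESCs labelled Apex1 it was 2 with a replicate block and with all 12 groups in 1 fit, and 0 with the duplicates summed or an adjusted p below 0.05, in place of 1. For the RA effect in the libraries labelled Apex1 it was 4 with DESeq2 and 1 without a filter on low counts, with the duplicates summed or at 0.05, in place of 2. Against the Neil mutants with the duplicates summed, it was 2 in EBs in place of 4 and 4 in EBs+RA in place of 7. Without 1 library, the number ranged from 0 to 2 in Neil1, 0 to 1 in Neil2 and 0 to 2 in Apex1-labelled mESCs, from 6 to 7, 4 to 6 and 3 to 6 in EBs, and from 6 to 7, 6 to 7 and 4 to 9 in EBs+RA. It ranged from 5 to 7 for control EBs against mESCs, 8 to 9 for control EBs+RA against EBs, 3 to 5, 4 to 5 and 1 to 6 for the RA effect, and, for Apex1 against the Neil mutants, 2 to 6 (EBs) and 2 to 7 with RA. Between Neil1 and Neil2 it stayed 0. Over all genes, the calls without 1 library ranged from 1407 to 3705 in Neil2 EBs, 2602 to 4386 and 1027 to 5631 in EBs and EBs+RA labelled Apex1, 1614 to 3414 and 1196 to 4574 for the RA effect in Neil2 and Apex1, and 559 to 3965 and 1286 to 4692 for Apex1 against the Neil mutants. With 1 duplicate left out, the lone library labelled Apex1 is assumed to vary like the other groups. Mutants and controls share only replicate numbers, and the block on them changed no other count by over 1.5 times. The causes were not tested. Pax3, Zic1 and Tcfap2b in EBs without RA rest on few counts, and their fold changes there carry wide errors.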
